A study of Rattus norvegicus with 50 samples.

Results

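Lung expression after 1 week of nickel subsulfide (Ni3S2) inhalation at 0.60 mg/m3 was compared with that of unexposed controls of the same week. The comparison took the 5 arrays of the exposed group and the 5 arrays of the controls, 10 of the 50 arrays in the series, and every gene that a probe set with 1 gene symbol represented, which was 13438 genes. The exposed rats had inhaled 0.60 mg/m3 Ni3S2 aerosol, about 0.44 mg of nickel per m3, for 6 hours a day on 5 days, and the controls had been kept at a target concentration of 0 for the same week. A 2nd control group had been kept at 0 for 4 weeks (20 exposure days) and is set beside the first. All animals were male Fischer 344 rats, 7 to 8 weeks old on receipt, and the labels name no genetic change and no further treatment. Each array held RNA from 1 animal's distal airway tissue of the right caudal lung lobe, labelled as lung broncho-alveolar cells, and the 5 arrays of a group came from the 5 of 8 animals with the best RNA. The tissue is a mixture of cell types. Defining markers of the labelled tissue were present in the exposed arrays, with mean log2 intensities of 13.53 for the surfactant gene Sftpc of alveolar type 2 cells, 11.31 for Ager of alveolar type 1 cells, 13.56 for the club cell secretoglobin Scgb1a1, 9.87 for Foxj1 of ciliated cells and 8.97 for the endothelial gene Pecam1.

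Nickel subsulfide dissolves slowly in lung fluid and is carcinogenic to the rat lung by inhalation. Inhaled particles are taken up by macrophages and epithelial cells, where nickel is released. In rat lung, inhaled nickel compounds are known for inflammation of the alveoli, macrophage accumulation and epithelial proliferation. Dividing cells make the proteins of DNA replication in S phase and those of mitosis in G2 and M phase, so transcripts of these genes are low in resting lung. Secretory cells of the airways make mucins and antimicrobial proteins, and club cells hold most of the lung's cytochrome P450 enzymes.

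The 1-week controls stood apart from most other arrays, which bears on every result below. On the first principal component, which held 63.5% of the variance, the exposed arrays lay between -2.5 and 5.6, the 1-week controls between -75.2 and -43.6, and the 4-week controls between 28.5 and 35.3. The 1-week 0.04 mg/m3 arrays overlapped the 1-week controls, between -84.9 and -62.8. The exposed arrays thus lay between the 2 control groups, which themselves differed in 9873 genes (73.5% of those tested), with 4734 (35.2%) higher and 5139 (38.2%) lower in the 4-week controls. Whether a batch of tissue or arrays moved with the week was not tested, since scan dates were not used here. Results against the 1-week controls are therefore given with the change against the 4-week controls beside them. Genes at which all 5 exposed arrays lay beyond all 10 controls are counted separately. All values are log2 intensities on the authors' scale, so 1 unit is a doubling, changes are log2 differences ± the standard error of the model, and each group has n = 5.

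**Figure D1:**
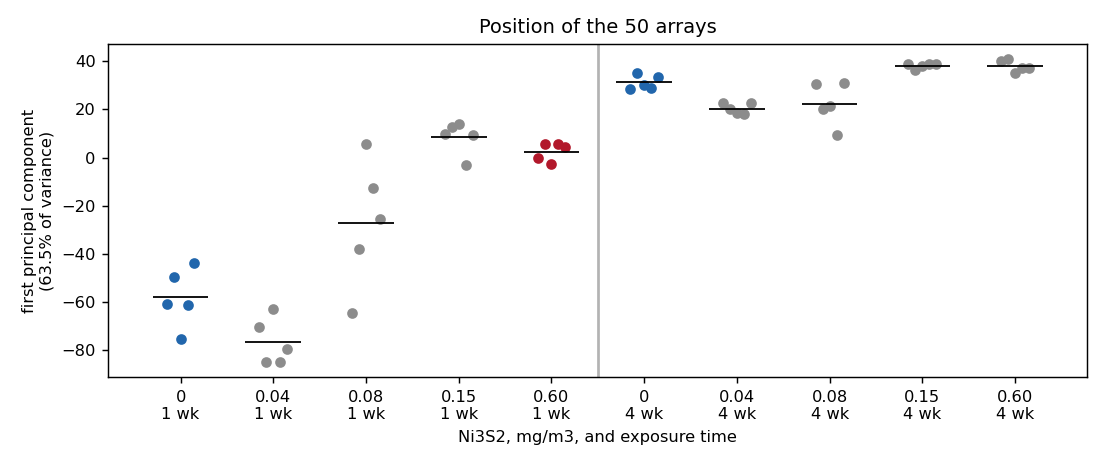
Position of the 50 arrays on the first principal component (vertical axis) by Ni3S2 concentration in mg/m3 and exposure time (horizontal axis), with 1 point an array and bars at the group means. The exposed arrays of 0.60 mg/m3 at 1 week (red) lie between -2.5 and 5.6, the 1-week controls (left, blue) between -75.2 and -43.6, and the 4-week controls (right, blue) between 28.5 and 35.3.

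At 0.60 mg/m3 for 1 week, 8742 genes (65.1%) differed from the 1-week controls at an adjusted p under 0.05 (limma with Benjamini-Hochberg adjustment over all genes), with 4408 higher (32.8%) and 4334 lower (32.3%). Of these, 5136 (38.2% of all genes tested) changed at least 1.5-fold. The median change over all genes was -0.014. All 5 exposed arrays lay above the 5 1-week controls in 3642 of the genes called higher (27.1% of all genes tested). They lay below them in 3459 of those called lower (25.7% of all genes tested). In 1083 genes (8.06%) the call was higher and all 5 exposed arrays lay above all 10 controls, and in 291 (2.17%) the call was lower and they lay below all 10. Against the 4-week controls 6637 genes (49.4%) were called. In the exposed arrays 4469 genes (33.3% of all genes tested) were higher and 2168 (16.1%) lower than these controls, with a median change of 0.099. Counts of called list members below are to be read beside these shares of all genes. In bulk tissue, more cells of a type and more RNA of a gene per cell cannot be told apart.

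The 12 largest rises were in an alternatively activated macrophage gene, an acute-phase gene, a macrophage matrix protein, a proton pump subunit and 8 genes of dividing cells. Which cells made these transcripts was not tested. Retnla, which encodes the secreted protein resistin-like alpha of alternatively activated macrophages, read 13.16, 13.08, 13.0, 12.91 and 13.01 in the exposed arrays, against 8.27, 8.36, 8.38, 8.18 and 8.62 in the 1-week controls. The 4-week controls read 9.09 to 9.27. Every exposed array lay above every control by a wide margin, and the exposed arrays were close to the top of the array's range. The rise was 25.5-fold (4.67 ± 0.27, adjusted p = 4.18e-18), and 3.81 on the log2 scale against the 4-week controls. Saa3, an acute-phase serum amyloid protein made in the lung by epithelium and macrophages, read 7.95, 8.74, 7.8, 7.42 and 8.48 in the exposed arrays, against 3.54, 3.63, 3.57, 3.32 and 3.69 in the 1-week controls. It rose by 4.53 ± 0.30 (adjusted p = 1.87e-16), and by 3.87 against the 4-week controls. In the 1-week controls Saa3, Melk and Atp6v0a4 averaged 3.55, 3.72 and 3.52, near the bottom of the array's range (lowest value 2.22). Whether they were above background there was not tested, so the size of these 3 rises is uncertain. The same limit holds for Exo1, Tdh, Lcn2 and Ccna2, described below, which averaged 3.2, 3.53, 3.59 and 3.87 in the 1-week controls. Spp1 encodes osteopontin, a phosphoprotein secreted by activated macrophages and epithelium. Its values were 8.13, 7.97, 7.51, 7.13 and 7.91 in the exposed arrays and 4.55, 4.43, 4.09, 4.39 and 4.56 in the 1-week controls, a rise of 3.33 ± 0.30, with 2.68 against the 4-week controls. Atp6v0a4, a subunit of the vacuolar proton pump, rose as much on average (3.33 ± 0.32) with a wider spread, from 6.05 to 7.9 in the exposed arrays, against 3.27 to 3.67 in the 1-week controls and 3.4 to 3.9 in the 4-week controls (3.26 against these). Separation from the 1-week controls was part of the choice of these 12 genes, and all 12 also lay above the 4-week controls in every exposed array.

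**Figure D2:**
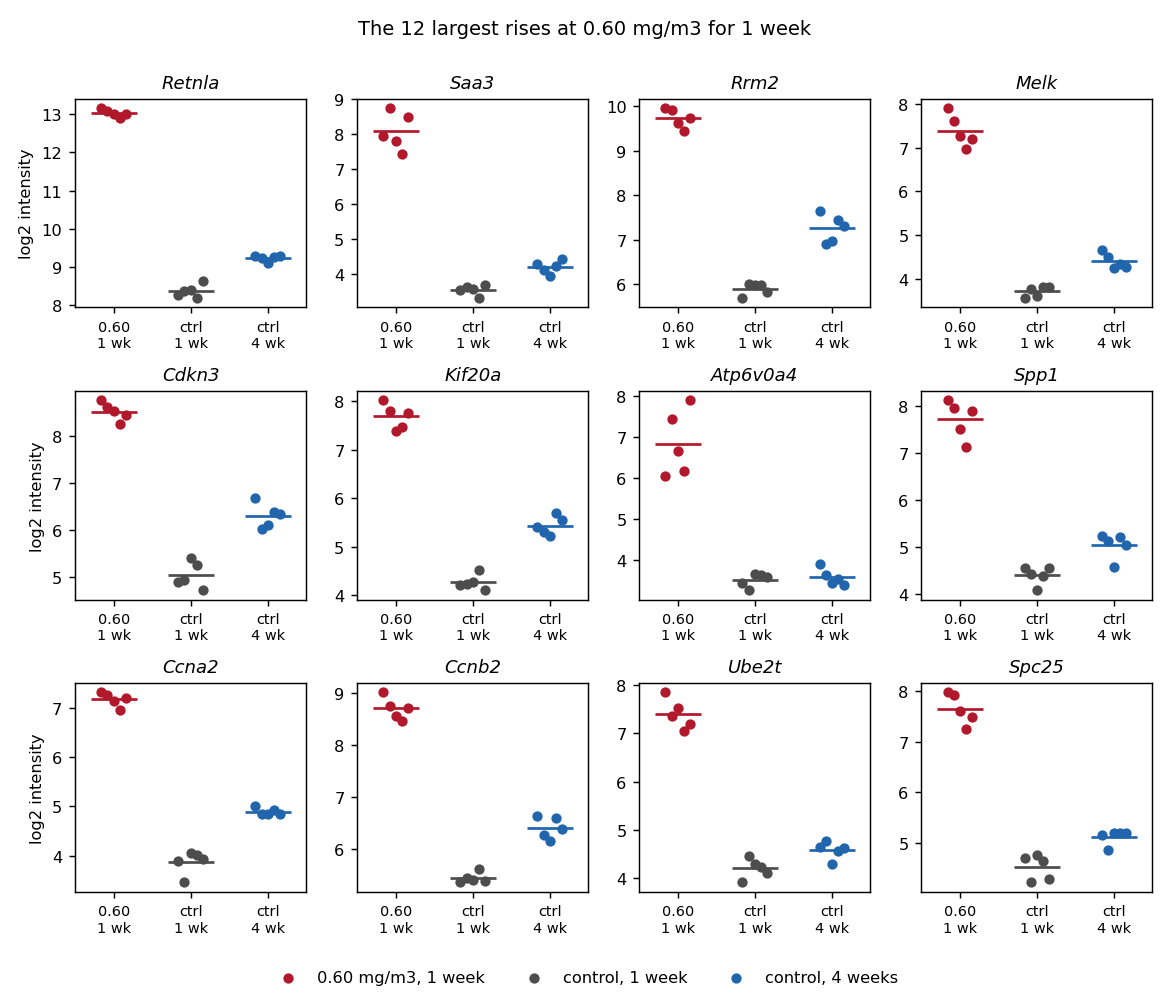
Log2 intensity (vertical axes, which do not start at 0) of the 12 genes with the largest rises in each array of 0.60 mg/m3 at 1 week (red), the 1-week controls (grey) and the 4-week controls (blue), with bars at the group means. In each panel all 5 exposed arrays lie above all 10 controls, as for Retnla, with 12.91 to 13.16 in exposed arrays.

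Genes of G2 and mitosis formed the most uniform group. Of 36 measured, 33 were called higher and 0 lower than the 1-week controls, and 26 lay above all 10 controls in every exposed array. Their median change was 1.87, beside -0.014 over all genes, and 1.81 against the 4-week controls, where 29 were called higher and 0 lower. The mean of the list per array ran from 6.67 to 7.34 in the exposed group, against 5.0 to 5.23 in the 1-week controls and 5.33 to 5.49 in the 4-week controls. Ccnb2 encodes cyclin B2, which drives entry into mitosis with the kinase Cdk1. Its arrays read 9.01, 8.75, 8.56, 8.47 and 8.72 in the exposed group, against 5.36, 5.44, 5.4, 5.62 and 5.39 in the 1-week controls, a 9.59-fold rise (3.26 ± 0.19, adjusted p = 7.47e-18). Replicate 1 was the highest exposed array and replicate 4 the lowest, and the same held for Melk, a mitotic kinase, which read 7.9, 7.61, 7.26, 6.96 and 7.19 in the exposed group, against 3.57, 3.77, 3.62, 3.83 and 3.81 in the 1-week controls (3.66 ± 0.27). The cyclin Ccna2, of S phase and G2, rose by 3.30 ± 0.23. Kif20a, a kinesin of cytokinesis, rose by 3.43 ± 0.21. Spc25, a subunit of the kinetochore's microtubule anchor, rose by 3.12 ± 0.23, and the phosphatase Cdkn3, which acts on cyclin-dependent kinases, by 3.47 ± 0.24. Against the 4-week controls these 6 rises were 2.3 for Ccnb2, 2.97 for Melk, 2.28 for Ccna2, 2.26 for Kif20a, 2.53 for Spc25 and 2.21 for Cdkn3.

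Mki67 and Top2a, widely used markers of dividing cells, were looked up after the values had been seen. Top2a, the topoisomerase that untangles replicated chromosomes, read 7.15, 7.06, 6.34, 5.97 and 6.39 in the exposed arrays, against 4.62, 4.87, 4.75, 5.05 and 4.26 in the 1-week controls (1.87 ± 0.22, adjusted p = 5.86e-10, and 1.60 against the 4-week controls). Mki67, which encodes the antigen Ki-67, read 5.78, 6.39, 5.27, 4.67 and 5.53 in the exposed arrays, against 4.86, 5.07, 4.97, 4.99 and 4.91 in the 1-week controls. Here exposed replicate 4 lay below all the 1-week controls, and the change of 0.57 ± 0.25 (adjusted p = 0.0404) was the weakest among the called mitosis genes named. It did not pass against the 4-week controls (0.42, adjusted p = 0.162). The call was lost without exposed replicate 1 (0.51), 2 (0.35) or 5 (0.57), and without control replicate 1 (0.54), 3 (0.57), 4 (0.57) or 5 (0.56).

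Most genes of DNA replication and the G1/S step were also higher. Of 28 measured, 23 were called higher and 2 lower, 20 lay above all 10 controls, and the median change was 1.12, with 24 higher, 0 lower and a median of 1.00 against the 4-week controls. Rrm2, the regulated subunit of ribonucleotide reductase, which makes the building blocks of DNA, read 9.95, 9.91, 9.62, 9.45 and 9.74 in the exposed arrays, against 5.69, 6.0, 5.99, 5.99 and 5.83 in the 1-week controls and 6.9 to 7.64 in the 4-week controls. It rose 14.2-fold (3.83 ± 0.22, adjusted p = 2.44e-18), and by 2.48 against the 4-week controls. Its partner subunit Rrm1 rose by 2.04 ± 0.16, and by 0.64 against the 4-week controls. Mcm6, of the helicase that opens DNA for replication, averaged 8.72 ± 0.08 (SD) in the exposed arrays and 6.29 ± 0.20 in the 1-week controls (2.43 ± 0.16, and 1.64 against the 4-week controls). Ube2t, the ubiquitin-conjugating enzyme of the Fanconi anaemia DNA crosslink repair pathway, rose by 3.20 ± 0.22, and by 2.82 against the 4-week controls. Among 25 DNA repair genes 11 were higher (44%) and 7 lower (28%), beside 32.8% and 32.3% of all genes. Their median was 0.19, and 7 lay above all 10 controls, with 14 higher and 1 lower against the 4-week controls. The members with the largest rises were Fancd2, which Ube2t helps to modify (1.51 ± 0.15), and the exonuclease Exo1 (1.21 ± 0.16), both also used during replication, with 1.28 and 1.07 against the 4-week controls. Targets of p53 moved both ways, with 8 of 17 higher, 7 lower, a median of 0.03 and 0 beyond all 10 controls, and with 4 higher and 4 lower against the 4-week controls. The cell cycle inhibitor Cdkn1a (-1.10 ± 0.15) and Phlda3 (-1.61 ± 0.14) were lower than the 1-week controls but higher than the 4-week controls, by 0.49 and 0.35.

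Promoters are shown for 4 genes of dividing cells because 33 of the 36 mitosis genes were called higher. Ccnb2, Spc25 and Melk are on the mitosis list, and Cdkn3 is not, so it is not in the shares below. RefSeq promoters of build GRCr8 were held for 31 of the 36 mitosis genes and for 11089 of all genes tested, and the 250 bases before the annotated start were searched on both strands, with overlapping matches allowed. The first motif was TTTGAA, the core of the cell cycle genes homology region (CHR), and the 2nd was CCAAT, the motif of the factor NF-Y. TTTGAA was found in 15 of 31 mitosis promoters (48.4%), in 1 of 23 replication promoters (4.35%) and in 10.9% of all promoters. CCAAT was found in 80.6% of mitosis promoters, in 60.9% of replication promoters, in 86.7% of the 15 cholesterol promoters held and in 35.1% of all promoters. TTTGAA was in 13.3% of the cholesterol promoters. Both motifs were present in 48.4% of mitosis promoters and 4.03% of all. These are matches to letters and not shown to be binding sites. The 4 promoters below are of genes among the 12 largest rises, 3 with matches to both motifs and Melk with a match to neither. Variants of these letters and bases past the annotated start were not searched. Capitals mark TTTGAA and CCAAT or their reverse complements, and each sequence runs 5′ to 3′ on the gene's own strand. They lie at chr8:79981659-79981908 on the minus strand (Ccnb2), chr15:22502136-22502385 on the plus strand (Cdkn3), chr3:74396719-74396968 on the minus strand (Spc25) and chr5:63335901-63336150 on the plus strand (Melk).
Ccnb2: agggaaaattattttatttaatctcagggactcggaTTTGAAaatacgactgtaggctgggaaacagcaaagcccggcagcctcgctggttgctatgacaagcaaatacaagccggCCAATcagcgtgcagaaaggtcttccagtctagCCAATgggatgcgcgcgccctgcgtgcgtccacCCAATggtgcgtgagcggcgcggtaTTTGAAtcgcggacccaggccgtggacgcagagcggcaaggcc
Cdkn3: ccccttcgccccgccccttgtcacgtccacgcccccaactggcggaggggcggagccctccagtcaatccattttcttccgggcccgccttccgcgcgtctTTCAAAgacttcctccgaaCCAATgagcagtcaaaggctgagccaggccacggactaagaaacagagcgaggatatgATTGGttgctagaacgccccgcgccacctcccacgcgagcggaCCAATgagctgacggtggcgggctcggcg
Spc25: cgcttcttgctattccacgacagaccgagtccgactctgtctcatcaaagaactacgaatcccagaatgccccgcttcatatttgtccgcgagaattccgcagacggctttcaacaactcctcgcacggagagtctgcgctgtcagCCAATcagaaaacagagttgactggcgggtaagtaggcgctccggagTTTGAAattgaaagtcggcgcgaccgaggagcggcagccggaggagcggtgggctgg
Melk: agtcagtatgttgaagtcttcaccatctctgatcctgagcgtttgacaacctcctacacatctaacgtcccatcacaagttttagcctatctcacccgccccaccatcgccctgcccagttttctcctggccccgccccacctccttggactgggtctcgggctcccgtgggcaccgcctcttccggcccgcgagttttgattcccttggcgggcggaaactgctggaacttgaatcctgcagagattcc

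Acute-phase and secreted defence genes were mostly higher or not called. Of 20, 10 were higher and 1 lower (median 0.30), and 3 lay above all 10 controls, with 10 higher and 1 lower against the 4-week controls. Beside Saa3, the siderophore-binding protein Lcn2 read 4.41, 5.58, 4.54, 4.5 and 5.88 in the exposed arrays, against 3.53, 3.1, 3.45, 3.94 and 3.91 in the 1-week controls (1.39 ± 0.25, and 1.33 against the 4-week controls). S100a8, a subunit of the neutrophil protein calprotectin, rose by 1.34 ± 0.26 but was not called against the 4-week controls (0.07, adjusted p = 0.843). The complement genes Cfi and C6 rose, with Cfi, the protease that inactivates complement fragments, at 10.36 ± 0.33 in the exposed arrays and 7.74 ± 0.33 in the 1-week controls (2.62 ± 0.21), and C6, of the membrane attack complex, by 1.39 ± 0.18. Cfi stood 1.21 and C6 1.48 above the 4-week controls. Of 19 complement genes 9 were higher (47.4%) and 6 lower (31.6%), beside 32.8% and 32.3% of all genes. Against the 4-week controls 11 were higher and 3 lower.

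Among chemokine ligands, Cxcl1 and Cxcl2, which attract neutrophils, were above all 10 controls. Cxcl1 averaged 9.79 ± 0.40 in the exposed arrays and 8.59 ± 0.14 in the 1-week controls (1.19 ± 0.14), and Cxcl2 averaged 5.95 ± 0.61 and 4.36 ± 0.16 in these groups (1.59 ± 0.21). Cxcl1 stood 1.49 and Cxcl2 1.40 above the 4-week controls. Ccl7, a monocyte attractant, rose by 1.26 ± 0.27, and by 1.61 against the 4-week controls. The neutrophil receptor Cxcr1 for such ligands was higher than the 1-week controls by 1.65 ± 0.24 and not called against the 4-week controls (0.01, adjusted p = 0.976). Of 15 CXC chemokines and receptors 7 were higher (46.7%) and 3 lower (20%), and of 15 CC chemokines and receptors 5 were higher (33.3%) and 2 lower (13.3%). Over all genes 32.8% were higher and 32.3% lower, so the CC share higher was near that of all genes. Set against the 4-week controls, 7 and 6 were higher and 1 and 2 lower in these lists. Il1b, which encodes interleukin 1 beta, rose by 1.34 ± 0.18 and its decoy receptor Il1r2 by 1.82 ± 0.19. Against the 4-week controls Il1r2 stood 1.36 higher, while Il1b did not pass (0.23, adjusted p = 0.316). The NF-kB regulator Nfkbiz rose by 1.10 ± 0.10, and by 0.25 against the 4-week controls. A dimmer probe set of the gene was not called (-0.12). Cyclooxygenase Ptgs2 rose by 1.11 ± 0.25, with overlap between the groups, and by 0.79 against the 4-week controls.

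Macrophage genes differed in how they compared with the 2 control groups. Mmp12, the macrophage elastase, averaged 8.03 ± 0.28 in the exposed arrays and 6.07 ± 0.51 in the 1-week controls (1.97 ± 0.27), and stood 1.47 above the 4-week controls. Gpnmb, a glycoprotein of lipid-laden macrophages, was higher than the 1-week controls by 1.67 ± 0.20 and was not called against the 4-week controls (0.12, adjusted p = 0.654). Arg1, the arginase of alternatively activated macrophages, behaved likewise, with 7.11, 7.44, 7.08, 7.17 and 7.9 in the exposed arrays, against 5.68, 6.18, 5.59, 5.99 and 6.66 in the 1-week controls and 7.11 to 7.62 in the 4-week controls (-0.06 against these, adjusted p = 0.833). Chi3l1, a chitinase-like protein of macrophages, lay above all 10 controls, at 11.24 ± 0.16 in the exposed arrays, against 10.08 ± 0.18 in the 1-week and 9.70 in the 4-week controls, a difference of 1.54 from the 4-week controls. Of 24 macrophage lipid-handling and lysosomal genes 13 were higher (54.2%) and 6 lower (25%). Of 12 genes of alternative activation 5 were higher (41.7%) and 3 lower (25%), and of 12 alveolar macrophage markers 7 were higher (58.3%) and 0 lower. Over all genes 32.8% were higher and 32.3% lower. Against the 4-week controls the lipid-handling genes had 8 higher and 3 lower, those of alternative activation 7 higher and 1 lower, and the alveolar macrophage markers 1 higher and 4 lower.

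Genes of cholesterol synthesis and uptake were more often higher than lower. Of 19, 13 were higher and 4 lower, 10 lay above all 10 controls, and the median change was 0.97. Against the 4-week controls 16 were higher and 0 lower, with a median of 0.69. Sqle, squalene epoxidase, read 10.24, 9.77, 9.97, 9.74 and 9.79 in the exposed arrays, against 8.17, 8.09, 7.98, 8.29 and 8.24 in the 1-week controls and 8.95 to 9.45 in the 4-week controls (1.75 ± 0.15, adjusted p = 8.7e-14, and 0.69 against the 4-week controls). The groups were separate, and the gap to the 4-week controls was the smaller one. The sterol demethylase Cyp51 (1.74 ± 0.11) and the sterol oxidase Msmo1 (1.62 ± 0.14) rose to a like extent, with 1.09 and 0.58 against the 4-week controls.

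Stress and amino acid genes were more often higher than lower. Of 28 genes of the unfolded protein and integrated stress response 17 were higher and 6 lower, 11 lay above all 10 controls, and against the 4-week controls 20 were higher and 2 lower. Nupr1, a stress-induced chromatin protein, averaged 10.09 ± 0.14 in the exposed arrays and 8.32 ± 0.12 in the 1-week controls (1.77 ± 0.15), and Dnajc3, a chaperone of the endoplasmic reticulum, rose by 1.72 ± 0.12. Nupr1 stood 1.26 and Dnajc3 0.50 above the 4-week controls. Gdf15, a secreted stress cytokine, went the other way against the 1-week controls (-2.07 ± 0.22) but was not called against the 4-week controls (0.17, adjusted p = 0.549). Of 30 genes of serine, glycine, asparagine and threonine metabolism and of tRNA charging, 16 were higher and 8 lower, 11 lay above all 10 controls, and against the 4-week controls 24 were higher and 0 lower. Asns, asparagine synthetase, read 9.41, 9.25, 9.47, 9.17 and 9.43 in the exposed arrays, against 7.83, 7.94, 7.57, 7.99 and 7.95 in the 1-week controls and 8.33 to 8.58 in the 4-week controls (1.49 ± 0.10, adjusted p = 1.62e-16, and 0.90 against the 4-week controls). Psat1, of serine synthesis, rose by 1.94 ± 0.13 and Tdh, threonine dehydrogenase, by 1.53 ± 0.21, and both lay above all 10 controls, with 0.90 for Psat1 and 1.45 for Tdh against the 4-week controls. Hars1, which charges the histidine tRNA, differed by 2.42 ± 0.28 from the 1-week controls and was not called against the 4-week controls (-0.19, adjusted p = 0.61).

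Glycolysis genes had 7 of 14 members higher, 4 lower and 6 above all 10 controls, and 12 higher with 0 lower against the 4-week controls. Ldha, lactate dehydrogenase A, averaged 11.54 ± 0.06 in the exposed arrays, 10.39 ± 0.20 in the 1-week controls and 10.85 in the 4-week controls (1.15 ± 0.07 against the 1-week and 0.69 against the 4-week controls). The lactate exporter Slc16a3 rose by 1.20 ± 0.18, and by 2.02 against the 4-week controls. Of 24 targets of the hypoxia-inducible factor, a factor whose oxygen-sensing hydroxylases nickel ions can inhibit, 10 were higher (41.7%) and 6 lower (25%). Over all genes 32.8% were higher and 32.3% lower. Of the targets, 6 lay above all 10 controls, and 11 were higher and 3 lower against the 4-week controls (33.3% and 16.1% of all genes). An action of nickel on this factor was not tested. P4ha1, a collagen prolyl hydroxylase, rose by 1.17 ± 0.11 and Ankrd37 by 1.16 ± 0.11, with 0.75 and 1.08 against the 4-week controls. Egln3, one of the oxygen-sensing hydroxylases and picked out after its values were seen, read 5.82, 6.08, 6.04, 5.88 and 6.45 in the exposed arrays, against 5.76, 5.62, 5.6, 5.62 and 5.49 in the 1-week controls. All 5 exposed arrays lay above the controls, but the change of 0.43 ± 0.24 did not pass (adjusted p = 0.104), while that against the 4-week controls did (1.35, adjusted p = 6.4e-06). The change passed with array weights (0.38, adjusted p = 0.0479) and with only the compared arrays (0.43, adjusted p = 0.00325), and over the alternatives its adjusted p ran up to 0.247. Of 33 proteasome subunits 18 were higher, 9 lower and 10 above all 10 controls, with 23 higher and 1 lower against the 4-week controls.

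Metal and oxidant response genes rose in part. The metallothionein Mt2A, which binds zinc and other metals, read 8.94, 9.46, 9.21, 8.87 and 9.7 in the exposed arrays, against 7.64, 7.13, 7.48, 7.36 and 7.34 in the 1-week controls and 7.02 to 7.63 in the 4-week controls. The groups were well apart, and the rise was 3.59-fold (1.84 ± 0.17, adjusted p = 1.15e-12), with 1.98 against the 4-week controls. Slc39a4, a zinc importer, lay below all 10 controls (-1.24 ± 0.15, and -0.42 against the 4-week controls). Hamp, which encodes the iron regulator hepcidin, rose by 1.41 ± 0.47 with overlap, and by 1.17 against the 4-week controls. Its 1-week controls disagreed, at 5.28, 4.89, 4.64, 7.13 and 7.12. Replicates 4 and 5 were also the highest of these controls for the heart muscle gene Tnnc1 (7.01 and 7.75), described below. Whether the Hamp signal came from heart muscle was not tested. Of 17 metal binding and transport genes 8 were higher (47.1%) and 4 lower (23.5%), with 7 higher and 5 lower against the 4-week controls. Of 22 targets of NRF2, the factor of the oxidant response, 10 were higher (45.5%) and 7 lower (31.8%), beside 32.8% and 32.3% of all genes. Their median was 0.20, and 9 were higher and 4 lower against the 4-week controls. Gclm, a subunit of the rate-limiting enzyme of glutathione synthesis, rose by 0.96 ± 0.09, and by 0.28 against the 4-week controls. The aldo-keto reductase Akr1b8 was 0.97 ± 0.13 above the 1-week controls and was not called against the 4-week controls (0.03, adjusted p = 0.886). Hmox1, haem oxygenase 1, was looked up after its values were seen and read 9.23, 9.47, 9.36, 9.22 and 9.84 in the exposed arrays, against 8.75, 8.78, 8.78, 8.79 and 8.93 in the 1-week controls (0.62 ± 0.12), with 1.33 against the 4-week controls.

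Among markers of airway secretory cells, those of mucous cells were more often higher, and several club cell enzymes were lower. Of 15 goblet and submucosal gland markers 9 were higher, 2 lower and 7 above all 10 controls, and against the 4-week controls 11 were higher and 0 lower. Muc5b, a gel-forming mucin, read 12.76, 12.7, 12.64, 12.27 and 12.48 in the exposed arrays, against 10.62, 10.37, 11.02, 11.33 and 10.37 in the 1-week controls and 9.01 to 10.78 in the 4-week controls. It rose 3.55-fold (1.83 ± 0.29, adjusted p = 5.27e-07), with 2.23 against the 4-week controls. Slc26a4, the anion exchanger pendrin of inflamed airway epithelium, rose 5.76-fold (2.53 ± 0.24, and 2.14 against the 4-week controls). Agr2, which folds mucins, rose by 1.51 ± 0.15, and by 0.83 against the 4-week controls, and Fcgbp, a mucus protein, was lower than the 1-week controls (-1.27 ± 0.19) but higher than the 4-week controls by 0.49.

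Of 13 club cell markers 3 were higher (23.1%) and 4 lower (30.8%), beside 32.8% and 32.3% of all genes, with a median change of 0.03. The list as a whole thus did not fall against the 1-week controls. In it, 3 members lay below all 10 controls, as did 2.17% of all genes. Against the 4-week controls 1 was higher and 7 lower. Cyp2a3, a cytochrome P450 of the airways, read 11.04, 10.26, 10.39, 11.23 and 10.03 in the exposed arrays, against 11.45, 11.54, 11.56, 11.45 and 11.68 in the 1-week controls and 11.56 to 12.12 in the 4-week controls. All exposed arrays were lower, with more spread among themselves than among controls (-0.95 ± 0.18, adjusted p = 1.17e-05, and -1.35 against the 4-week controls). The club cell enzymes Cyp2f4 (-0.94 ± 0.11) and Cyp4b1 (-0.64 ± 0.08) fell too, and also against the 4-week controls (-0.82 and -0.42). Of 24 xenobiotic metabolism genes, which include these 3, 4 were higher and 12 lower (median -0.27), 5 lay below all 10 controls, and 1 was higher and 11 lower against the 4-week controls. Cyp2s1, another airway cytochrome P450, had the largest fall (-1.55 ± 0.16, and -0.55 against the 4-week controls), and the aldehyde dehydrogenase Aldh3a1 was lower than the 1-week controls (-1.25 ± 0.34) and was not called against the 4-week controls (0.24, adjusted p = 0.602). Type 2 cell markers had 7 of 21 higher and 7 lower, and type 1 cell markers 5 of 15 higher and 3 lower, beside 32.8% of all genes higher and 32.3% lower, and all but the type 1 share lower (20%) were near those of all genes. In both lists 0 members lay beyond all 10 controls, and against the 4-week controls 4 and 3 were higher and 3 and 2 lower.

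**Figure D3:**
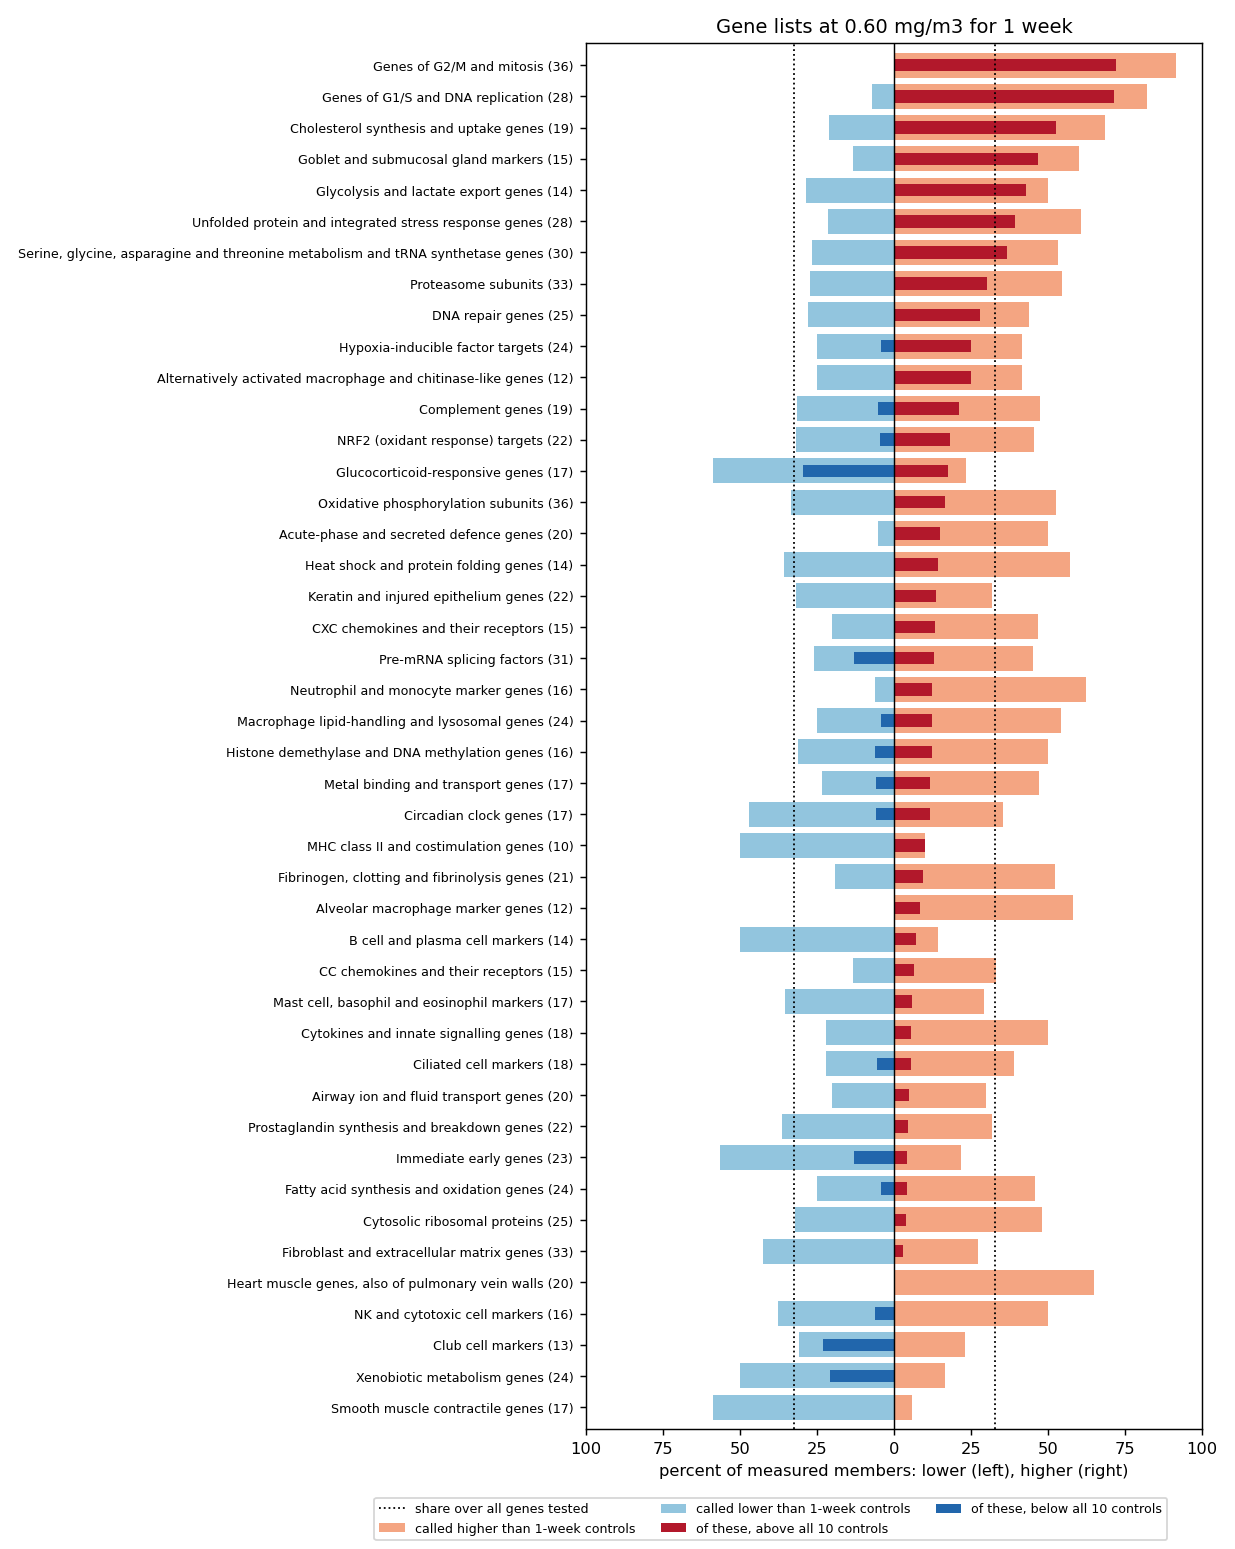
Share of measured members (horizontal axis, percent, lower to the left and higher to the right of 0) of gene lists called at 0.60 mg/m3 for 1 week against the 1-week controls (pale bars), and the part beyond all 10 controls (dark bars), with the number measured after each name. Lists with at least 10 measured members are drawn where any member lay beyond all 10 controls or over 50% were called one way, and dotted lines mark the shares over all genes tested, 32.8% higher and 32.3% lower.

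The largest falls were smaller than the largest rises, and several turned with the control group. The 12 largest falls against the 1-week controls ran from -2.57 ± 0.21 for Upk1a to -1.75 ± 0.13 for Mau2. Only Upk1a and Zbtb41 of these lay below all 10 controls. The fatty acid transporter Slc27a3 (-2.20), the glycine methyltransferase Gnmt (-2.15) and Depp1 (-1.86) missed the threshold against the 4-week controls, with -0.36, -0.48 and -0.47. Zfp654, a zinc finger gene (-2.13), and the clock gene Per1 (-2.06) were lower against both, by 1.22 and 0.69 on the log2 scale against the 4-week controls. The retinol importer Stra6 (-2.02), the cohesin loader subunit Mau2, Dact3 (-1.80) and Tsku (-1.77) stood at 1.00, 0.44, 0.31 and 0.41 against the 4-week controls, of which Stra6 and Mau2 passed the threshold upwards. Dimmer probe sets of several of these genes moved less. They gave -0.04 and 0.05 for Dact3 and -0.07 for Slc27a3 (not called), and -0.38, -0.22 and -0.13 for Mau2, of which -0.13 was not called. For Stra6 the 4 dimmer sets gave -2.07, -0.79, -0.58 and -0.18, the last of these not called.

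Below both control groups the largest falls were in Upk1a, Zbtb41, Zfp534l2, Foxp2, Ptpn4, Sema3d, Cebpd and Pik3c2a. Lying below all 10 controls was part of the choice of these genes. In Zbtb41, Zfp534l2, Foxp2, Ptpn4, Sema3d and Pik3c2a, replicates 1 and 4 were the lowest of the 4-week controls. These genes thus varied together across animals, and their falls may not be separate results. Upk1a encodes uroplakin 1a, a membrane protein of the urinary tract lining, and read 4.8, 4.87, 5.15, 4.62 and 4.1 in the exposed arrays, against 7.42, 6.95, 7.61, 7.5 and 6.91 in the 1-week controls and 5.52 to 6.15 in the 4-week controls. The 4-week controls lay between the exposed arrays and the 1-week controls (-1.08 against the 4-week controls, and adjusted p = 3.79e-14 against the 1-week controls). Foxp2, a transcription factor of lung epithelium, read 5.23, 5.65, 5.04, 4.83 and 4.6 in the exposed arrays, against 6.99, 6.61, 6.51, 6.71 and 7.02 in the 1-week controls and 6.54 to 7.67 in the 4-week controls. Both control groups were well above it, with changes of -1.70 ± 0.24 and -2.07. The zinc finger genes Zbtb41 (-1.87 ± 0.28) and Zfp534l2 (-1.73 ± 0.22), the phosphatase Ptpn4 (-1.68 ± 0.22), the guidance factor Sema3d (-1.66 ± 0.22) and the lipid kinase Pik3c2a (-1.61 ± 0.20) gave -1.87, -1.35, -1.55, -1.33 and -1.31 against the 4-week controls. Dimmer probe sets were not called for Zfp534l2 (0.02), Cebpd (0.00) and Ptpn4 (-0.09 and -0.10), while a further one gave -2.31 for Cebpd and -1.89 for Ptpn4.

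**Figure D4:**
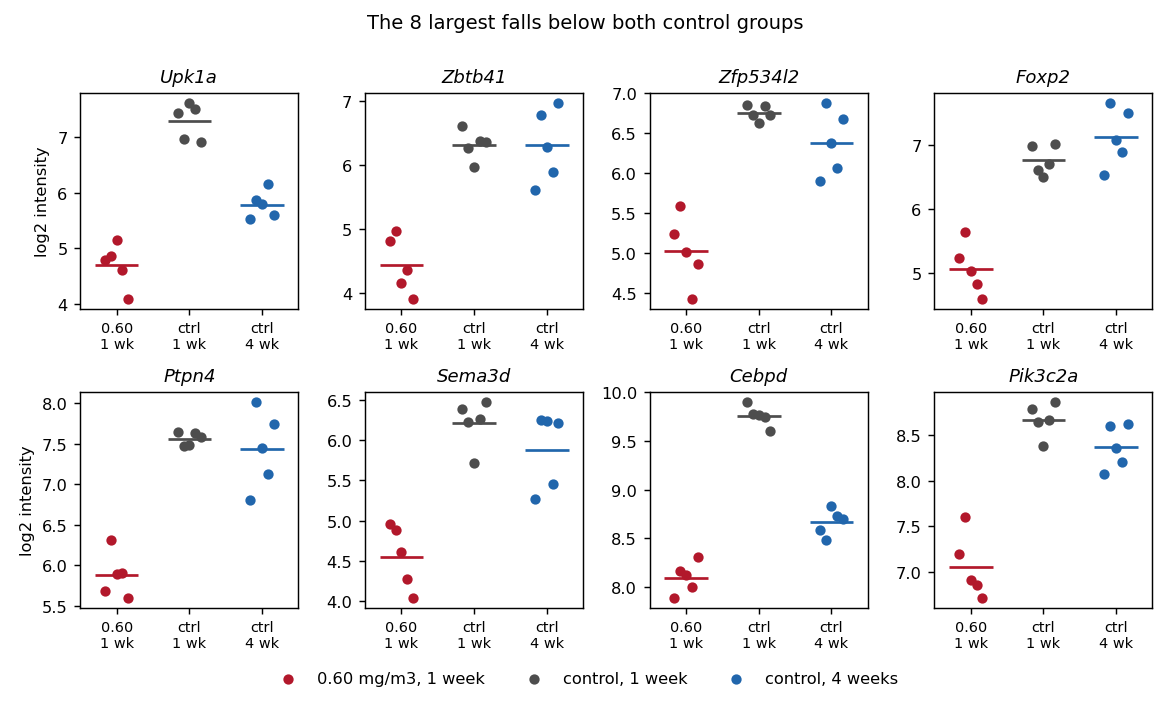
Log2 intensity (vertical axes, which do not start at 0) of the 8 genes with the largest falls below both control groups, in each array of 0.60 mg/m3 at 1 week (red), the 1-week controls (grey) and the 4-week controls (blue), with bars at the group means. In each panel all 5 exposed arrays lie below all 10 controls, as for Foxp2, with 4.6 to 5.65 in exposed arrays.

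Glucocorticoid-responsive and immediate early genes were more often lower than higher against the 1-week controls. Of 17 genes that respond to glucocorticoids 10 were lower and 4 higher, 5 lay below and 3 above all 10 controls, and against the 4-week controls 8 were lower and 4 higher. Cebpd, a transcription factor of this response, read 7.89, 8.16, 8.12, 8.0 and 8.31 in the exposed arrays, against 9.9, 9.77, 9.76, 9.74 and 9.6 in the 1-week controls and 8.48 to 8.83 in the 4-week controls (-1.66 ± 0.15, adjusted p = 2.12e-13). The exposed arrays were below both groups, with the smaller distance to the 4-week controls (-0.57). Fkbp5, a chaperone of the glucocorticoid receptor noticed after its values were seen, rose by 1.16 ± 0.17, at 8.32 ± 0.12 in the exposed arrays and 7.16 ± 0.29 in the 1-week controls, with 1.68 against the 4-week controls. Of 23 immediate early genes 13 were lower and 5 higher against the 1-week controls, whereas 5 were lower and 10 higher against the 4-week controls. The RNA decay factor Zfp36 (-1.53 ± 0.12), the vascular transcription factor Klf2 (-1.36 ± 0.09) and the MAP kinase phosphatase Dusp1 (-1.22 ± 0.10) lay below all 10 controls, with -0.53, -0.46 and -0.39 against the 4-week controls. A dim probe set of Klf2 was not called (-0.07), and the other 3 gave -1.92 to -0.85. Among 17 circadian clock genes 6 were higher (35.3%) and 8 lower (47.1%), beside 32.8% and 32.3% of all genes. The share higher was thus near that of all genes. Against the 4-week controls 6 were higher and 4 lower. Bhlhe40 (1.75 ± 0.14) and Cry1 (0.78 ± 0.09), which repress the clock, lay above all 10 controls, with 1.41 and 0.66 against the 4-week controls.

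Several other cell type lists turned with the control group, among them smooth muscle, T cell, MHC class II and fibroblast genes. The balance also shifted over all genes, from 32.8% higher and 32.3% lower against the 1-week controls to 33.3% and 16.1% against the 4-week controls. The turn of a list is therefore not by itself a trait of its cell type. Smooth muscle contractile genes had 1 of 17 higher and 10 lower against the 1-week controls (median -0.76), and 8 higher and 3 lower against the 4-week controls (median 0.39). Smooth muscle actin Acta2 read 6.33, 7.01, 7.03, 7.23 and 6.9 in the exposed arrays, against 8.92, 8.11, 8.43, 8.59 and 7.87 in the 1-week controls and 6.13 to 6.48 in the 4-week controls. It was thus below the 1-week controls and higher on average than the 4-week controls (-1.48 ± 0.17 and 0.56), as were desmin, Des (-1.57 ± 0.23, and 1.38 against the 4-week controls), and calponin, Cnn1 (-1.54 ± 0.23, and 0.79 against the 4-week controls). Of 20 T cell genes, 0 were higher and 7 lower (8 higher and 2 lower against the 4-week controls), and Zap70 and Cd6, both of T cell receptor signalling, were at -1.19 each, with 0.49 and 0.59 against the 4-week controls. Of 10 MHC class II genes, 1 was higher and 5 were lower (6 higher and 0 lower against the 4-week controls), with the regulator Ciita at -1.27 and 0.63 and RT1-DMa, which loads peptides, at -1.01 and 0.89. Endothelial genes were more often lower against both, with 6 of 25 higher and 12 lower against the 1-week controls, and 2 higher and 7 lower against the 4-week controls. Of 30 interferon-induced genes 7 were higher and 6 lower, 0 lay beyond all 10 controls, and the median change was 0.00, with 11 higher and 4 lower against the 4-week controls. Ifit3 (1.79 ± 0.32) and Rsad2 (1.67 ± 0.21), antiviral effectors, were above the 1-week controls, with 0.13 and 0.11 against the 4-week controls (not called), and the peptide transporter Tap1 was below them (-0.98 ± 0.15, with 0.54 against the 4-week controls). Of 33 fibroblast and matrix genes 9 were higher and 14 lower (13 higher and 2 lower against the 4-week controls). Timp1, an inhibitor of matrix proteases, was above all 10 controls, at 10.68 ± 0.27 in the exposed arrays, against 8.21 ± 0.06 in the 1-week and 8.72 in the 4-week controls (2.48 ± 0.16 and 1.96). Elastin, Eln, was lower with overlap (-1.42 ± 0.29, and -0.28 against the 4-week controls).

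Heart muscle genes varied with single animals; in rats, cardiac muscle extends into the pulmonary veins. Of 20, 13 were higher and 0 lower against the 1-week controls, and 1 was higher and 1 lower against the 4-week controls. Troponin C, Tnnc1, read 8.0, 8.7, 8.0, 8.1 and 7.9 in the exposed arrays, against 5.42, 5.52, 3.58, 7.01 and 7.75 in the 1-week controls and 6.76 to 8.6 in the 4-week controls. The 1-week controls spread over more than 4 log2 units, so the change of 2.28 ± 0.45 rests on control arrays that disagree. Myoz2 (2.5 ± 0.46), Csrp3 (2.12 ± 0.47) and the atrial myosin Myh6 (2.05 ± 0.55) were higher too. Tnnc1, Myoz2, Csrp3 and Myh6 differed from the 4-week controls by 0.32, 0.22, 0.16 and -0.20, with adjusted p from 0.586 to 0.818. Dimmer probe sets of Myh6 were not called against the 1-week controls (0.51 and 0.17). The number of members called higher was 6 without control replicate 3, and 8 without exposed replicate 2 or without exposed replicate 3. It was 9 to 15 without each of the other arrays.

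Between 0.60 and 0.15 mg/m3 at 1 week, 2 genes passed (0.0149% of those tested), 1 in each direction (0.00744%), and 867 had an unadjusted p under 0.05 (6.45%), with 590 higher (4.39%) and 277 lower (2.06%). With array weights, which give arrays that stand apart less weight, 209 genes passed, 163 higher and 46 lower. Traip, a ubiquitin ligase that acts on stalled replication machinery, averaged 4.25 ± 0.15 at 0.60 mg/m3 and 3.64 at 0.15 mg/m3, with 2.96 ± 0.19 in the 1-week controls. These levels are near the bottom of the array's range. Its change was 1.29 against the 1-week and 1.06 against the 4-week controls. The difference between the concentrations was 0.60 (95% interval 0.40 to 0.80, unadjusted p = 3.43e-07). Cyp2a3 averaged 10.59 ± 0.52 at 0.60 mg/m3 and 11.54 at 0.15 mg/m3, the same mean as in the 1-week controls, a difference of -0.95 (95% interval -1.31 to -0.58). Cyp2f4 was lower at 0.60 than at 0.15 mg/m3 by an unadjusted test (-0.50, 95% interval -0.72 to -0.28), as was Cyp4b1 (-0.25, interval -0.41 to -0.10). Of 13 club cell markers 7 and of 24 xenobiotic metabolism genes 8 had an unadjusted p under 0.05 downwards, and 0 upwards. At the other end, Retnla (0.60, interval 0.06 to 1.14), Saa3 (0.84, interval 0.23 to 1.45), Mt2A (0.49, interval 0.15 to 0.84) and Atp6v0a4 (1.00, interval 0.37 to 1.64) were higher at 0.60 mg/m3 by the unadjusted test. Gpnmb (0.00, interval -0.41 to 0.41), Upk1a (0.03, interval -0.40 to 0.45) and Sqle (0.10, interval -0.20 to 0.40) had unadjusted p-values above 0.05 between the concentrations.

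Replicate 1 of 0.15 mg/m3 stood apart in these lists, with a mean over the mitosis genes of 5.70 beside 6.62 to 7.09 in the other arrays of its group, and its effect was examined after the values had been seen. With it, 23 of 36 mitosis genes had an unadjusted p under 0.05 upwards, and without it 1 had. Over all genes, 309 (2.3%) were then higher and 181 (1.35%) lower at that threshold. The club cell and xenobiotic lists still had 6 members each lower without it. Traip, Cyp2a3 and Retnla were then at 0.50 (adjusted p = 0.0844), -0.84 (adjusted p = 0.36) and 0.08 (adjusted p = 0.999), and 0 genes passed in limma. Saa3 and Mt2A were at 0.42 (unadjusted p = 0.117) and 0.34 (unadjusted p = 0.0521). From the lowest to the highest concentration, mean levels of Ccnb2 in the exposed groups at 1 week were 5.84, 6.89, 8.16 and 8.70, after 5.44 in the 1-week controls. Those of Retnla were 8.96, 9.75, 12.43 and 13.03, after 8.36 in the controls. Muc5b stood at 10.50, 11.13, 12.24 and 12.57 in the same order, after 10.74 in the controls. Mt2A stood at 7.48, 7.84, 8.74 and 9.24, after 7.39. The 0.15 mg/m3 means given here include replicate 1, without which the difference of Retnla between 0.60 and 0.15 mg/m3 was 0.08.

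**Figure D5:**
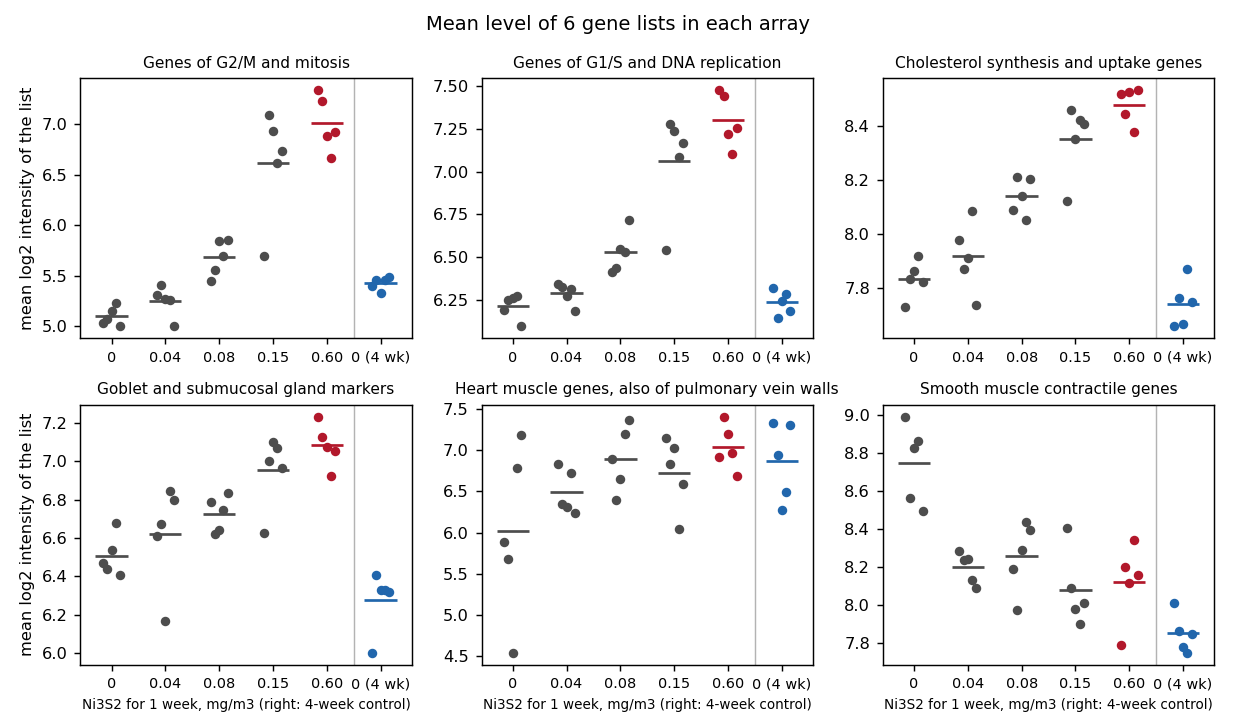
Mean log2 intensity over the members of 6 gene lists (vertical axes, which do not start at 0) in each array, by Ni3S2 concentration at 1 week in mg/m3 (horizontal axis, 0 is the 1-week control), with the 4-week controls at the right (blue) and bars at the group means. The 0.60 mg/m3 arrays (red) of the mitosis list lie between 6.67 and 7.34, and replicate 1 of 0.15 mg/m3 lies at 5.70, apart from the rest of its group.

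The change at 0.60 mg/m3 was set against the change at the same concentration after 4 weeks, each from the controls of its time. The 2 changes differed in 7616 genes (56.7%), with 3900 (29%) more positive and 3716 (27.7%) more negative at 1 week. As the 2 control groups differ in 73.5% of genes, exposure time and the state of the controls cannot be told apart here. At 4 weeks 2334 of all genes (17.4%) were called, 1273 higher (9.47%) and 1061 lower (7.9%). Rrm2 changed by 3.83 at 1 week and 1.24 ± 0.22 at 4 weeks, a difference of 2.59, with means of 9.73 and 8.49 in the exposed groups. Of 36 mitosis genes 31 were higher and 0 lower at 4 weeks, with a median of 0.92, and 23 had the more positive change at 1 week and 2 the more negative. Mmp12 and Spp1 went the other way, with 3.87 and 4.56 at 4 weeks. Interferon-induced genes had 24 of 30 higher and 0 lower at 4 weeks, and 20 had the more negative change at 1 week. Irf7, a regulator of interferon genes, fell against the 1-week controls by 0.87 ± 0.22 on the log2 scale and rose by 2.04 at 4 weeks, a difference of -2.91. The lymphoid chemokine Ccl19 read 9.35, 10.28, 10.38, 9.4 and 8.98 in the 1-week exposed arrays, against 11.47, 10.93, 11.85, 11.17 and 9.88 in the 1-week controls and 7.43 to 7.63 in the 4-week controls. It changed by -1.38 ± 0.34 at 1 week and by 1.62 at 4 weeks, although its level in the exposed arrays of 1 week was above that of the 4-week controls by 2.15. The prostaglandin E synthase Ptges was higher at both times, by 0.77 ± 0.23 and 3.49, and the phosphatase Dusp2 had -1.71 ± 0.23 and 0.97. The 1-week exposed arrays differed from the 4-week controls by 0.66 for Irf7, 3.30 for Ptges and 0.53 for Dusp2 (adjusted p = 0.0512 for Dusp2).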

How the data were processed

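Total RNA from 50 rat lungs was measured on Affymetrix HT rat arrays, in 10 groups of 5. The deposited values are log2 intensities, which the authors made by RMA in Partek, per the submitters' processing notes. The software versions, the scan dates and the set of arrays normalised together were not given in the sources used here. All 31042 probe sets were read, and 0 columns were left unmapped. Of these, 19063 carried 1 symbol, 572 several and 11407 none. For the 3985 genes with more than 1, the brightest probe set on average over the 50 arrays stood for the gene, leaving 13438 genes. The values were modelled without further scaling with limma 3.58.1 in R 4.3.3 (1 mean a group, all 50 arrays, empirical Bayes, Benjamini-Hochberg adjustment over all genes, threshold 0.05), and figures and promoter counts were made in Python 3.11.15. The model code was tried on simulated data with independent noise in each gene. Such data lack the variation that many genes share in these arrays, so this was a check of the code only. Same-numbered exposed and control arrays correlated at -0.145 to 0.222 in their deviations from group means, so numbers were not taken as pairs.

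The genes named were the 12 largest rises and falls with all 5 exposed arrays on one side of the 1-week controls, the 8 largest on one side of all 10 controls, at most 4 called genes from each list, and the 4 largest each way between concentrations and between times. Unnamed loci were left out, and genes outside the rule are marked. The comparison, the lists and this rule were chosen with earlier results of these data known. Alternatives covered normalization, dim genes, probe set choice, array weights, the replicate block, the control group and leaving out each replicate.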

Additional observations from a re-analysis of the deposited data

Results flagged for a closer look

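Among 220 sets of 5 arrays checked (110 genes in the exposed group and the 1-week controls), 9 held an array whose gap to its nearest neighbour was large for the range of its group by Dixon's test. Chance gives about 1 in 20. In the exposed group, replicate 2 was high for the heart muscle genes Myoz2 (8.09, others 7.29 to 7.41), Tnnc1 (8.70, others 7.90 to 8.10) and Csrp3 (8.90, others 7.84 to 8.01), and for the helicase gene Mcm6 (8.86, others 8.65 to 8.70). Exposed replicate 5 was low for the clock gene Per1 (6.58, others 7.37 to 7.60), and exposed replicate 4 for the mucin-folding gene Agr2 (12.09, others 12.34 to 12.40). Among the 1-week controls, replicate 2 was low for the cyclin Ccna2 (3.46, others 3.89 to 4.06), replicate 3 for elastin, Eln (8.46, others 9.14 to 9.32), and replicate 5 was high for Hmox1 (8.93, others 8.75 to 8.79).

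For 85 of the 110 genes described, the change at 1 week differed from the change at 4 weeks by a limma interaction test (adjusted p under 0.05), with 39 more positive at 1 week and 46 at 4 weeks. Over all genes tested 56.7% did so, and some of the 110 were named for this difference. Each is the 1-week change minus the 4-week change on the log2 scale, and each rests on 1-week controls that stood apart, so exposure time and control group cannot be told apart. In genes of dividing cells, these were Rrm2 2.59, Cdkn3 2.48, Kif20a 2.48, Ccnb2 2.40, Ccna2 2.14, Ube2t 2.12, Melk 2.0, Spc25 1.87, Mcm6 1.85, Rrm1 1.85, Traip 1.23, Fancd2 0.99, Exo1 0.64 and Mki67 -0.96. For heart muscle genes they were Myoz2 2.53, Tnnc1 2.34, Csrp3 2.21 and Myh6 2.01. Values for smooth muscle and matrix genes were Des -1.50, Acta2 -1.35, Cnn1 -1.28, Eln -1.44 and Timp1 1.97. The differences of inflammatory and macrophage genes were Cxcr1 3.04, Retnla 1.26, Cfi 1.44, Il1b 0.85, Mmp12 -1.90, Ccl7 -1.67, Lcn2 -1.60, Spp1 -1.23, Ccl19 -3.00 and Ptges -2.72. Antigen presentation, T cell and interferon genes had Irf7 -2.91, RT1-DMa -1.74, Ciita -1.64, Tap1 -1.42, Cd6 -1.64 and Zap70 -1.58. In sterol, stress, amino acid and glycolysis genes, these were Hars1 2.83, Psat1 1.76, Nupr1 1.24, Dnajc3 1.16, Msmo1 1.11, Sqle 1.05, Asns 0.98, Ldha 0.55, Cyp51 0.53, Gdf15 -1.29 and Slc16a3 -1.15. For metal, oxidant and hypoxia genes they were Hamp 1.57, Akr1b8 1.19, Gclm 1.09, Mt2A 0.56, Egln3 -1.72, Hmox1 -0.77 and Slc39a4 -0.75. Values for airway epithelial genes were Cyp2a3 1.02, Agr2 1.01, Cyp2s1 -0.52, Slc26a4 -1.41, Fcgbp -0.99 and Foxp2 -1.91. The differences of glucocorticoid, immediate early, clock and p53 target genes were Dusp2 -2.68, Per1 -1.56, Cebpd -1.30, Zfp36 -0.96, Klf2 -0.79, Dusp1 -0.75, Cdkn1a -0.56, Phlda3 -0.91 and Cry1 0.53. The remaining genes had Atp6v0a4 1.89, Slc27a3 -1.63, Zfp654 -2.65, Stra6 -2.35, Zbtb41 -2.05, Depp1 -0.72, Dact3 -1.63, Tsku -1.09, Mau2 -1.69, Zfp534l2 -2.24, Ptpn4 -1.87, Sema3d -1.65 and Pik3c2a -1.89.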

How the results depend on the processing

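Genes called at 0.60 mg/m3 against the 1-week controls numbered 8742, and from 8345 to 8742 when each replicate was left out. They numbered 5136 at a fold change of at least 1.5 and 6637 against the 4-week controls (67.3% higher). A further fit took the array axis, a score for each array that ran along the first principal component, as a covariate. With this covariate the genes called numbered 5958 (57.3% of calls higher, against 50.4%). Positions on this axis correlated at -0.99 with the first principal component over the 50 arrays. The exposed arrays lay between -0.134 and 0.279 on it and the 1-week controls between 0.78 and 2.2, without overlap. The axis thus moved with the comparison, and this fit cannot tell exposure from array position. Arrays treated alike also spread along this direction. On the first principal component the 0.08 mg/m3 arrays of 1 week lay between -64.7 and 5.5. The 1-week controls lay between -75.2 and -43.6 there, and the exposed arrays, closer together, between -2.5 and 5.6. How many of the 8742 calls follow such spread and not exposure was not tested. The 8 other planned settings on genes gave 8002 to 9233. The count of 8002 was of the 10078 genes left without the dimmest 25%. Where each probe set was tested, 11492 of 19063 were called. Of 110 genes described, the 4-week controls kept the direction and call of 71 and gave Egln3 a call. They took the call from 15 that kept their direction, and 23 had the other sign, called or not. Among the 23, Gdf15, Dact3, Tsku, Hars1, Dusp2, Arg1, Aldh3a1 and Myh6 were not called there (adjusted p from 0.0512 to 0.833 in limma). These 23 stood at Gdf15 0.17, Stra6 1.00, Dact3 0.31, Tsku 0.41, Mau2 0.44, Hars1 -0.19, Ccl19 2.15, Irf7 0.66, Dusp2 0.53, Arg1 -0.06, Fcgbp 0.49, Aldh3a1 0.24, Myh6 -0.20, Des 1.38, Cnn1 0.79, Acta2 0.56, Zap70 0.49, Cd6 0.59, Ciita 0.63, RT1-DMa 0.89, Tap1 0.54, Phlda3 0.35 and Cdkn1a 0.49. The axis took the call from 20 and turned none. These 20 were Stra6, Myoz2, Ccl19, Irf7, Mki67, S100a8, Ccl7, Ptgs2, Arg1, Hamp, Fcgbp, Aldh3a1, Tnnc1, Csrp3, Myh6, Zap70, Cd6, Ciita, Ifit3 and Cdkn1a. Because the axis separated the compared groups, whether these losses reflect processing was not tested. Array weights, centring and quantile normalization took the call from Mki67, and the fit of the compared arrays took it from Myh6, whose change was the same (2.05). Egln3 gained a call with array weights, with only the compared arrays and with only the 25 arrays of 1 week (adjusted p = 0.0479, 0.00325 and 0.0251). Between 0.60 and 0.15 mg/m3 the count of 2 was 209 with array weights (163 higher and 46 lower), 1 without the dimmest 25% of genes, 0 with only the compared arrays or, a setting chosen after seeing the data, with only the 25 arrays of 1 week, and 0 to 7 when each replicate was left out. The difference between times gave 7616 genes, and 7286 to 7703 when each replicate was left out. Replicate numbers did not pair the arrays (same-numbered arrays correlated at -0.145 to 0.222). With the replicate block the counts were 8731, 1 and 7585, and the block changed no call of the 110 genes. The 5 arrays a group limit the precision, and genes near the bottom of the range, such as Traip, carry little signal over background. The cause of these changes was not tested.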
